A study of Mus musculus with 40 samples.

Results

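The genes described here are Nr1d1, Nr1d2, Rora and Nfil3, the members of the clock loop in which REV-ERB and ROR nuclear receptors and the factor Nfil3 act. They were found by name, by mapping the Ensembl identifiers of the count table to mouse gene symbols, and they are 4 of 51789 genes in the table. All 4 passed the filter on low counts in every comparison. The expression of each was followed over 20 groups of cultured mouse melanoma cells.

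In the core clock, Bmal1 (gene symbol Arntl) pairs with Clock and activates genes through E-boxes, and Nr1d1 and Nr1d2 are among its best known targets. Nr1d1 and Nr1d2 encode REV-ERBα and REV-ERBβ, heme-binding nuclear receptors that recruit the NCoR and Hdac3 corepressors to ROR elements (ROREs), where Rora encodes a competing activator, RORα. Arntl, Cry1 and Nfil3 are RORE-bearing genes, and Nfil3 encodes a leucine zipper repressor that binds D-boxes, the elements that Dbp, Tef and Hlf activate.

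RNA was read by QuantSeq, a method that reads only the 3′ end of polyadenylated transcripts, and so a gene's length does not scale its count. Each group had 2 libraries, 40 in all. B16-F10 is a mouse melanoma line, and its Ctrl and Bmal1 KO cells were single clones. YUMM2.1 is a mouse melanoma line with activated Braf, a lost copy of Cdkn2a and stabilised β-catenin, and YUMM1.7 carries activated Braf with loss of Cdkn2a. aC3 is a single CRISPR clone of YUMM2.1 in which Bmal1 was disrupted. Both it and the YUMM2.1 cells given the constructs carried a luciferase reporter driven by the Bmal1 promoter. In aC3, YUMM2.1 and YUMM1.7 the cells carried an empty vector (EV), wild-type Bmal1 (WT-Bmal1) or dHLH-Bmal1. In aC3 and YUMM2.1 these were delivered by a lentivirus with GFP, and the cells were sorted for it. How the YUMM1.7 cells were made is not given in the sources used here. dHLH-Bmal1 lacks the basic helix-loop-helix domain that binds DNA and can still pair with Clock. In YUMM2.1 and YUMM1.7 the constructs were added to cells with their own Bmal1, and in aC3 to cells without it. In a further experiment, YUMM2.1 cells bearing one of the same constructs also carried a control hairpin (shNC) or a hairpin against Myh9 (shMyh9#2 or shMyh9#4), selected with puromycin.

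Library totals ran from 3643332 to 22970049 counts with a median of 10021164.5, and 1 CPM, a count scaled to the library's total, stood for 3.64 counts in the shallowest library. Levels are CPM after TMM scaling over all 40 libraries. Differences are log2 fold changes with their standard error (SE), and a gene is called where edgeR's quasi-likelihood test gave an adjusted p under 0.05. Replicate libraries differed by more than counting noise in all 20 groups, at 2.65 to 89.4 times the variance of counting alone. The study calls the 2 libraries of B16-F10, YUMM2.1 without a hairpin, shNC and EV shMyh9#2 groups biological replicates. It says the same of YUMM1.7 libraries, without naming a construct. How they were grown, and what the other groups' libraries are, is not given in the sources used here, so p-values measure the spread between these libraries, which may be partly technical. The time of harvest relative to clock synchronisation is not given in the sources used here. These genes cycle in clock-competent cells, and the part of clock phase in a difference was not tested.

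The targeted genes and cell markers were checked first. Myh9 was lower with both hairpins than with shNC under each of the 3 constructs. Arntl counts did not separate the libraries labelled Bmal1 KO from Ctrl, and with EV they were 2.12-fold higher in the disrupted clone aC3 than in YUMM2.1 (adjusted p = 0.00257, and 0.0737 without YUMM2.1 EV replicate 2). A 3′ read says nothing of a disrupted reading frame, nor of a construct made without the gene's own 3′ end. Of the 7 melanocytic markers, all 7 had counts in B16-F10 and between 3 and 5 in the groups of the other lines, where Sox10 and Mitf carried their summed level. In YUMM2.1 without a hairpin, Sox10 lay at 484 to 501 CPM with EV and 66.2 to 72.9 CPM with dHLH-Bmal1, while in YUMM1.7 it lay between 0.0908 and 1.51 CPM and Mitf between 10.4 and 13.1 CPM. Summed CPM of 7 markers of immune, endothelial and epithelial cells lay between 3.75 and 26.4 in all libraries. Nearly all of this sum came from the endothelial markers Pecam1 and Cdh5, and Ptprc, Adgre1, Cd3e, Epcam and Krt14 were at or near 0.

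The labels of 2 YUMM2.1 libraries without a hairpin are in doubt. In a table of the study, the column named for the second EV library matches the deposited library labelled WT-Bmal1 replicate 1, and the column named for the first WT-Bmal1 library matches the one labelled EV replicate 2. The deposited labels are used here. Where exchanging them changed the sign or the call of a value printed here for the 4 genes, the exchanged value is given too.

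Nr1d1 spans chr11:98767932-98775333 (GRCm38, the build of mm10, minus strand), Nr1d2 chr14:18204054-18239127 (minus), Rora chr9:68653786-69388246 (plus) and Nfil3 chr13:52967209-52981073 (minus). The last 1075 bases of Nr1d1 overlap the end of Thra, which encodes a thyroid hormone receptor and runs on the plus strand. Rora overlaps the antisense gene Gm15511, which had 0 counts in every library. Promoter windows of 300 bases around the RefSeq start site (GRCm38.p6) are shown for 3 members to let a reader see which clock elements they hold, with the matched letters in capitals. The Nr1d1 window is chr11:98775328-98775627, the Nr1d2 window chr14:18239057-18239356 and the Nfil3 window chr13:52980990-52981289, each printed 5′ to 3′ on the minus strand, the strand of the gene.
Nr1d1: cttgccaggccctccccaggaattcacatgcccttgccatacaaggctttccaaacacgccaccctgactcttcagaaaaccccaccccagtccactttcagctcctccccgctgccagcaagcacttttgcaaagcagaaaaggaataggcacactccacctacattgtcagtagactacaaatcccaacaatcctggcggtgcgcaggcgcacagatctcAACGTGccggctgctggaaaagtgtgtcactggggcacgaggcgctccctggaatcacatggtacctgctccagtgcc
Nr1d2: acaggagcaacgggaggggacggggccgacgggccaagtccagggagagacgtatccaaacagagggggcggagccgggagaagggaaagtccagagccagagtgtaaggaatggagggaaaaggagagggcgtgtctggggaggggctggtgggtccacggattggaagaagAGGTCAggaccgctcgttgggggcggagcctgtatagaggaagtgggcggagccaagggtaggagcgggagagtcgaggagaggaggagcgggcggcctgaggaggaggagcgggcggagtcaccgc
Nfil3: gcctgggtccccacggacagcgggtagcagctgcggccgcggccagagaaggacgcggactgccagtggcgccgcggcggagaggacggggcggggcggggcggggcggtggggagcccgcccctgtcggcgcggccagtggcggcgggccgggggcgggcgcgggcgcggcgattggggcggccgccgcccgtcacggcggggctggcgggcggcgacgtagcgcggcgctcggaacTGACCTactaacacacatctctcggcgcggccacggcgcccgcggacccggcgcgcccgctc

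Both strands were searched for the E-box CACGTG, the variant E′-box CACGTT, the D-box TTANGTAA and the RORE half-site AGGTCA, none of which shares letters with another in these windows. Nr1d1 held 1 E′-box, read on the opposite strand and starting at position -28 from the start site. Nr1d2 held 1 RORE half-site on its own strand at position -77, and Nfil3 held 1 on the opposite strand at position -12. The Rora window (chr9:68653536-68653835, plus strand) held no match to the 4 motifs, and neither CACGTG nor TTANGTAA was found in any of the 4 windows. Of 32851 promoters of the same length, 7.15% held CACGTG, 4.68% CACGTT, 2.32% TTANGTAA and 16.3% AGGTCA. A match is a string of letters and not a tested site, and elements outside these windows were not searched.

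**Figure D1:**
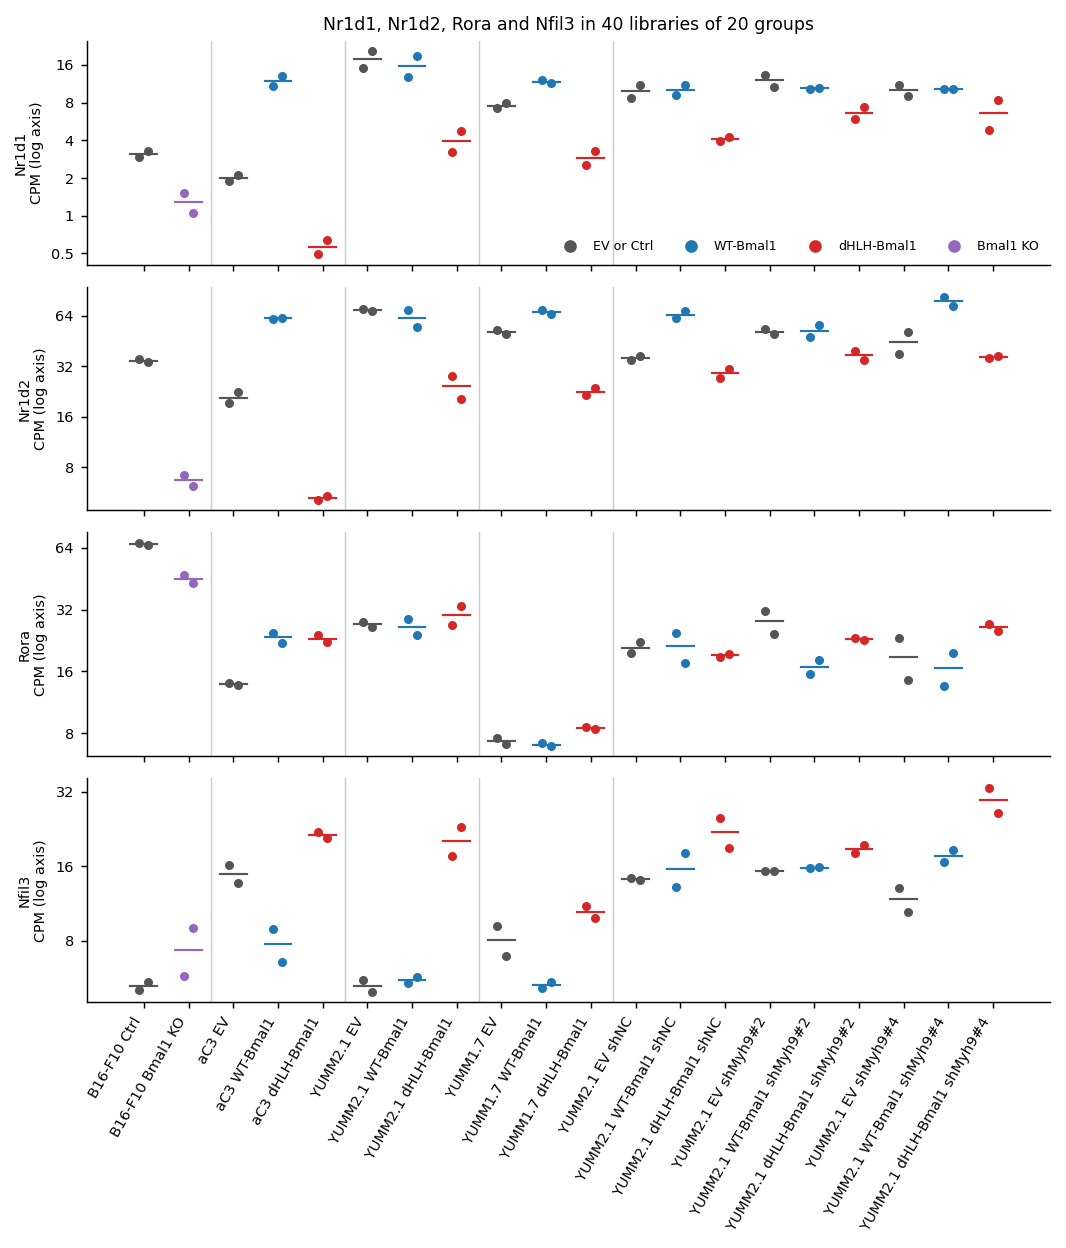
Levels of Nr1d1, Nr1d2, Rora and Nfil3 in CPM on log axes, with 1 panel per gene, 1 point per library, a bar at the mean of each of the 20 groups, and colour for EV or Ctrl, WT-Bmal1, dHLH-Bmal1 and Bmal1 KO. Nr1d1 and Nr1d2 were lowest with dHLH-Bmal1 in aC3 (means of 0.567 and 5.23 CPM), Rora was highest in B16-F10 Ctrl (66.8 CPM) and Nfil3 was highest in dHLH-Bmal1 cells with shMyh9#4 (29.6 CPM).

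Over the 20 group means, the highest level of Nr1d1 was 31.5 times the lowest, from 0.567 CPM with dHLH-Bmal1 in aC3 to 17.9 CPM with EV in YUMM2.1. For Nr1d2 the ratio was 15.0, from 5.23 CPM in the same aC3 group to 78.3 CPM in WT-Bmal1 cells with shMyh9#4. Rora spanned 9.51 times, from 7.02 CPM with WT-Bmal1 in YUMM1.7 to 66.8 CPM in B16-F10 Ctrl. Nfil3 spanned the least, 5.65 times, from 5.24 CPM in B16-F10 Ctrl to 29.6 CPM in dHLH-Bmal1 cells with shMyh9#4. Most neighbours in each order were not apart. Of 19 neighbouring pairs of groups, the libraries overlapped in 13 for Nr1d1, 15 for Nr1d2, 13 for Rora and 14 for Nfil3. Over 30 comparisons, Nr1d1 was called higher in 6 and lower in 8, Nr1d2 in 10 and 8, Rora in 3 and 2, and Nfil3 in 5 and 6. The share of all genes called ran from 0% to 46.9% between these comparisons, so these counts alone set no member apart. Comparisons within an experiment share EV libraries and are not independent of each other.

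The aC3 clone asks what each construct did in cells without functional Bmal1, and here the REV-ERB genes rose with WT-Bmal1 and fell with dHLH-Bmal1. Nr1d1 stood at 1.88 and 2.13 CPM with EV, 11.0 and 13.0 CPM with WT-Bmal1, and 0.490 and 0.645 CPM with dHLH-Bmal1. The 3 groups did not overlap, and the dHLH-Bmal1 values rest on 5 and 6 counts. WT-Bmal1 raised Nr1d1 5.95-fold over EV (log2 2.57, SE 0.29, edgeR adjusted p = 0.000118), and dHLH-Bmal1 left it 3.53-fold lower than EV (log2 -1.82, SE 0.44, adjusted p = 0.0168). Nr1d2 stood at 19.3 and 22.4 CPM with EV, 61.7 and 62.5 CPM with WT-Bmal1, and 5.10 and 5.37 CPM with dHLH-Bmal1. It followed the same order with no overlap, rising 2.97-fold with WT-Bmal1 (log2 1.57, SE 0.12, adjusted p = 4.40e-06). With dHLH-Bmal1 it fell to a level 4.02-fold under EV (log2 -2.01, SE 0.15, adjusted p = 1.58e-05). Between WT-Bmal1 and dHLH-Bmal1 the gap was log2 4.39 for Nr1d1 (SE 0.36, adjusted p = 1.59e-05) and 3.58 for Nr1d2 (SE 0.14, adjusted p = 4.81e-09). The adjusted p of Nr1d1 with dHLH-Bmal1 against EV was 0.0509 without EV replicate 1, 0.109 without EV replicate 2 and 0.0757 without dHLH-Bmal1 replicate 1.

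Nfil3, the D-box repressor, ran the other way in aC3. It stood at 16.2 and 13.6 CPM with EV, 8.88 and 6.57 CPM with WT-Bmal1, and 22.0 and 20.8 CPM with dHLH-Bmal1. It was lower with WT-Bmal1 than with either other construct, 1.93-fold under EV (log2 -0.95, SE 0.19, adjusted p = 0.00613) and 2.74-fold under dHLH-Bmal1 (log2 -1.45, SE 0.19, adjusted p = 0.00201). The dHLH-Bmal1 libraries lay above both EV libraries, and that difference was not called (log2 0.51, SE 0.18, adjusted p = 0.0812; 0.0397 with a replicate block). Rora, the activator, stood at 14.1 and 13.7 CPM with EV, 24.7 and 22.1 CPM with WT-Bmal1, and 24.0 and 22.2 CPM with dHLH-Bmal1. Both constructs stood above EV, at log2 0.75 (SE 0.14, adjusted p = 0.00384) and 0.72 (SE 0.14, adjusted p = 0.00575), and overlapped each other at a difference of log2 0.03 (95% interval -0.26 to 0.32). So all 4 members were called with WT-Bmal1, 3 higher and 1 lower, where 11.2% of 13790 genes were called, 4.92% higher and 6.28% lower, and 3 with dHLH-Bmal1, where 10.9% were. Between WT-Bmal1 and dHLH-Bmal1, 3 members were called against 0.877% of all genes. Some of these calls rest on single libraries. The call of Nfil3 with WT-Bmal1 was lost without EV replicate 1 (adjusted p = 0.0696) or WT-Bmal1 replicate 2 (0.0803), that of Rora with WT-Bmal1 without WT-Bmal1 replicate 1 (0.0598), and that of Rora with dHLH-Bmal1 without EV replicate 2 (0.0705) or in 1 fit of all 40 libraries (0.057).

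In YUMM2.1 without a hairpin, whose own Bmal1 was intact, dHLH-Bmal1 lowered both REV-ERB genes and raised Nfil3, and WT-Bmal1 made no called difference. Nr1d1 stood at 15.0 and 20.7 CPM with EV, 12.8 and 18.7 CPM with WT-Bmal1, and 3.22 and 4.75 CPM with dHLH-Bmal1. EV and WT-Bmal1 overlapped, and dHLH-Bmal1 lay below both, 4.48-fold under EV (log2 -2.16, SE 0.32, adjusted p = 0.00851) and 3.95-fold under WT-Bmal1 (adjusted p = 0.0115). Nr1d2 stood at 70.0 and 68.7 CPM with EV, 69.3 and 54.7 CPM with WT-Bmal1, and 28.2 and 20.4 CPM with dHLH-Bmal1. It showed the same pattern, at 2.83-fold under EV with dHLH-Bmal1 (log2 -1.50, SE 0.20, adjusted p = 0.00585) and 2.53-fold under WT-Bmal1 (adjusted p = 0.00823). Nfil3 stood at 5.56 and 4.96 CPM with EV, 5.38 and 5.68 CPM with WT-Bmal1, and 17.5 and 23.1 CPM with dHLH-Bmal1. It was 3.85-fold higher with dHLH-Bmal1 than with EV (log2 1.94, SE 0.24, adjusted p = 0.00474) and 3.68-fold higher than with WT-Bmal1 (adjusted p = 0.00504). Rora lay between 24.0 and 33.4 CPM in all 6 libraries and was not called.

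With dHLH-Bmal1 in YUMM2.1, 3 members were called against EV, where 13.2% of 14323 genes were, and 3 against WT-Bmal1, where 13% were. Between WT-Bmal1 and EV no member was called, none had an unadjusted p under 0.05 and DESeq2 called none, beside 0% of all genes in edgeR and 98 genes at an unadjusted p under 0.05. The log2 differences of WT-Bmal1 from EV were -0.18 for Nr1d1 (95% interval -0.87 to 0.51), -0.16 for Nr1d2 (-0.61 to 0.28), -0.04 for Rora (-0.47 to 0.38) and 0.07 for Nfil3 (-0.52 to 0.65). With the 2 doubted labels exchanged, Nr1d1 stood at log2 0.50 and Nfil3 at -0.045 with WT-Bmal1, neither called, and Nr1d1 at 0.30 with both libraries left out. The dHLH-Bmal1 calls against EV held in both of these alternatives. Against WT-Bmal1, the calls were lost for Nr1d2 (adjusted p = 0.0767) and Nfil3 (0.0632) without WT-Bmal1 replicate 1, and for Nr1d1 without WT-Bmal1 replicate 2 (0.0503) or dHLH-Bmal1 replicate 1 (0.0538). Sox10 fell with dHLH-Bmal1 in these same libraries, as given above, and its part in these differences was not tested.

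YUMM1.7 asks the same in a second line with intact Bmal1 and little Sox10. Nr1d1 stood at 7.22 and 7.95 CPM with EV, 12.0 and 11.4 CPM with WT-Bmal1, and 2.55 and 3.27 CPM with dHLH-Bmal1. The 3 groups did not overlap, and dHLH-Bmal1 was 2.58-fold under EV (log2 -1.37, SE 0.24, adjusted p = 0.00975) and 4.01-fold under WT-Bmal1 (adjusted p = 9.03e-05). WT-Bmal1 against EV was not called (log2 0.64, SE 0.20, adjusted p = 0.261). Nr1d2 stood at 52.6 and 49.7 CPM with EV, 69.7 and 65.5 CPM with WT-Bmal1, and 21.7 and 23.7 CPM with dHLH-Bmal1, again with no overlap. It was 2.25-fold lower with dHLH-Bmal1 than with EV (log2 -1.17, SE 0.096, adjusted p = 1.30e-05) and 2.99-fold lower than with WT-Bmal1 (adjusted p = 1.06e-07). Against EV, WT-Bmal1 gave log2 0.41 for Nr1d2 (SE 0.085, adjusted p = 0.0734, and 0.00269 with no filter on low counts).

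Nfil3 in YUMM1.7 stood at 9.18 and 6.92 CPM with EV, 5.17 and 5.43 CPM with WT-Bmal1, and 11.0 and 9.90 CPM with dHLH-Bmal1. The EV libraries lay between the others, and only the gap between WT-Bmal1 and dHLH-Bmal1 was called (log2 -0.97, SE 0.21, adjusted p = 0.0217). Against EV the differences were log2 -0.59 with WT-Bmal1 (adjusted p = 0.369) and 0.38 with dHLH-Bmal1 (adjusted p = 0.554). Rora lay between 6.91 and 8.58 CPM in all 6 libraries and was not called. With dHLH-Bmal1, 2 members were called lower than EV, where 0.42% of 13816 genes were lower and 0.63% were called in either direction, and 3 were called between WT-Bmal1 and dHLH-Bmal1, where 2.57% were. Between WT-Bmal1 and EV edgeR called 0 members, beside 0.138% of genes, 3 had an unadjusted p under 0.05, and DESeq2 gave none of the 4 an adjusted p. The Nfil3 gap lost its call without any 1 of the 4 libraries (adjusted p = 0.0722 without WT-Bmal1 replicate 1, 0.0571 without replicate 2, 0.14 without dHLH-Bmal1 replicate 1 and 0.107 without replicate 2), in DESeq2 (0.0522) and in 1 fit of all 40 libraries (0.106). The Nr1d1 call against EV was lost without EV replicate 1 (0.0613), EV replicate 2 (0.15) or dHLH-Bmal1 replicate 1 (0.145), and in 1 fit of all 40 libraries (0.0533).

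**Figure D2:**
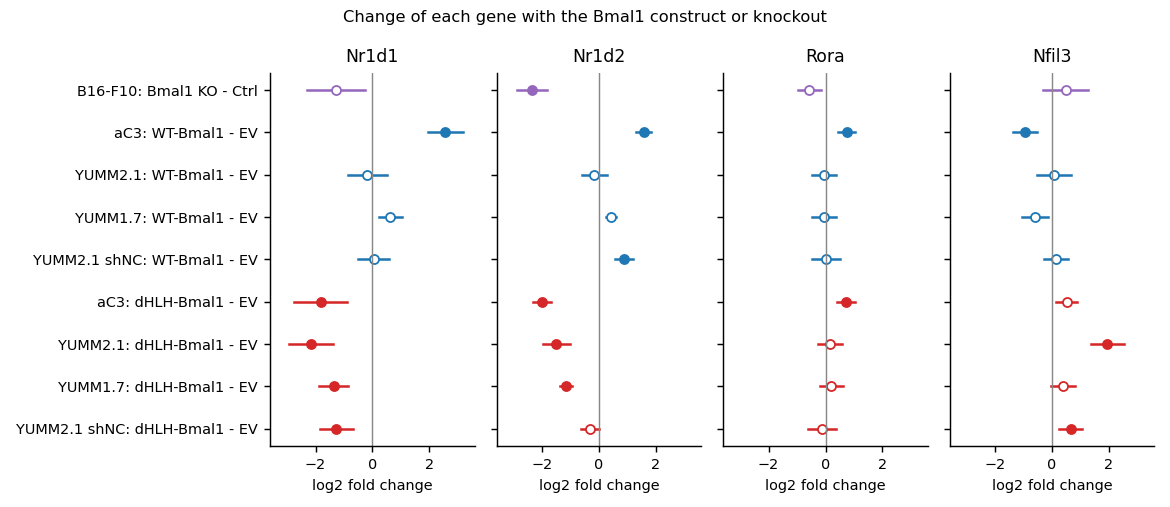
Log2 fold changes of the 4 genes (x axis) in B16-F10 (Bmal1 KO minus Ctrl) and for WT-Bmal1 and dHLH-Bmal1 minus EV in aC3, YUMM2.1, YUMM1.7 and YUMM2.1 with shNC, with 95% intervals; filled points passed the edgeR test. Nr1d1 and Nr1d2 lay below 0 with dHLH-Bmal1 in all 4 sets of cells, at -1.27 to -2.16 and -0.30 to -2.01. The -0.30, for Nr1d2 with shNC, was not called, and its 95% interval reached 0.02. WT-Bmal1 moved the 2 genes farthest in aC3, to 2.57 and 1.57.

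Whether a construct acted differently between lines was tested as the difference of its effects, in 1 fit of all 40 libraries. The WT-Bmal1 effect was larger in aC3 than in YUMM2.1 by log2 2.75 for Nr1d1 (SE 0.37, adjusted p = 0.000282) and 1.73 for Nr1d2 (SE 0.21, adjusted p = 9.73e-05), 2 of 4 members beside 0.168% of all genes. For Nfil3 the same difference was -1.01 and was not called (SE 0.32, adjusted p = 0.324). The dHLH-Bmal1 effects on Nr1d1 and Nr1d2 differed between aC3 and YUMM2.1 by log2 0.36 and -0.49, neither called (adjusted p = 0.53 and 0.205). The rise of Nfil3 with dHLH-Bmal1 was larger in YUMM2.1 without a hairpin than in aC3 and than in YUMM1.7. The log2 differences were -1.42 for aC3 minus YUMM2.1 (SE 0.30, adjusted p = 0.00189) and -1.56 for YUMM1.7 minus YUMM2.1 (SE 0.31, adjusted p = 0.00126). Nfil3 was the 1 of 4 members called in each, where 11.6% and 9.42% of genes were called. Between YUMM1.7 and YUMM2.1, the WT-Bmal1 effect on Nr1d1 differed by log2 0.80 (SE 0.34, adjusted p = 1); edgeR called no member there, 2 had an unadjusted p under 0.05, DESeq2 called none, and 0% of all genes were called. The YUMM2.1 EV libraries without a hairpin enter all of these differences, and line and experiment cannot be told apart. Effects in YUMM2.1 cells with shNC and without a hairpin were not tested against each other. With dHLH-Bmal1, Nfil3 rose by log2 0.65 with shNC and by 1.94 without a hairpin. With WT-Bmal1, Nr1d2 changed by 0.87 and -0.16 in these cells, and Nr1d1 by 0.04 and -0.18.

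In the hairpin experiment, YUMM2.1 cells with shNC had less Nr1d1 and more Nfil3 with dHLH-Bmal1 and more Nr1d2 with WT-Bmal1. Nr1d1 stood at 8.63 and 11.1 CPM with EV, 9.24 and 11.0 CPM with WT-Bmal1, and 3.96 and 4.22 CPM with dHLH-Bmal1. EV and WT-Bmal1 overlapped (log2 0.04, 95% interval -0.49 to 0.58), and dHLH-Bmal1 was 2.42-fold under EV (log2 -1.27, SE 0.27, adjusted p = 0.00199) and 2.49-fold under WT-Bmal1 (adjusted p = 0.0154). Nr1d2 stood at 34.8 and 36.8 CPM with EV, 61.8 and 68.6 CPM with WT-Bmal1, and 27.2 and 31.0 CPM with dHLH-Bmal1. WT-Bmal1 stood apart, 1.83-fold over EV (log2 0.87, SE 0.15, adjusted p = 0.000372) and 2.25-fold over dHLH-Bmal1 (adjusted p = 0.000213), while dHLH-Bmal1 against EV was not called (log2 -0.30, SE 0.15, adjusted p = 0.162). Nfil3 stood at 14.3 and 14.1 CPM with EV, 13.2 and 18.1 CPM with WT-Bmal1, and 25.0 and 19.0 CPM with dHLH-Bmal1. It was 1.57-fold higher with dHLH-Bmal1 than with EV (log2 0.65, SE 0.20, adjusted p = 0.0207), and its difference between WT-Bmal1 and dHLH-Bmal1 was not called (log2 -0.51, SE 0.20, adjusted p = 0.256). Rora lay between 17.6 and 24.7 CPM in these 6 libraries and was not called. The summed CPM of the 7 melanocytic markers went from 346 to 349 in EV cells to 119 to 122 (WT-Bmal1) and 41.2 to 44.3 (dHLH-Bmal1), and that of the markers of other cells from 8.07 to 10.1 in EV cells to 20.9 to 21.2 and 15.0 to 16.5. Their part in these differences was not tested.

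So 1 member of 4 was called with WT-Bmal1 under shNC, where 22.3% of 14848 genes were, 2 with dHLH-Bmal1, where 26.4% were, and 2 between the constructs, where 1.91% were. The count with WT-Bmal1 was near the share of all genes and is no result about the members as a set. Leaving out single libraries ended several of these calls. Nfil3 with dHLH-Bmal1 had an adjusted p of 0.0993 without EV replicate 1, 0.113 without EV replicate 2 and 0.27 without dHLH-Bmal1 replicate 1, and Nr1d1 between the constructs 0.165 without WT-Bmal1 replicate 2, 0.227 without dHLH-Bmal1 replicate 1 and 0.0978 without dHLH-Bmal1 replicate 2. Averaged over the 3 hairpins, dHLH-Bmal1 against EV gave log2 -0.88 for Nr1d1 (SE 0.16, adjusted p = 0.000198), -0.35 for Nr1d2 (SE 0.088, adjusted p = 0.00401) and 0.77 for Nfil3 (SE 0.12, adjusted p = 3.94e-05), 3 members beside 42.8% of genes. WT-Bmal1 against EV gave 0.57 for Nr1d2 (SE 0.085, adjusted p = 5.72e-05), 1 member beside 34.6% of genes, with -0.05 for Nr1d1, 0.26 for Nfil3 (adjusted p = 0.0914) and -0.29 for Rora (adjusted p = 0.10), which was called in 1 fit of all 40 libraries (0.0426). The mean levels of EV cells with shNC and of EV cells of YUMM2.1 without a hairpin stood at 9.87 and 17.9 CPM for Nr1d1, 35.8 and 69.3 CPM for Nr1d2, and 14.2 and 5.26 CPM for Nfil3. These cells come from different experiments, and that difference was not tested.

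The Myh9 hairpins, which lowered the RNA of this myosin heavy chain, were compared with shNC within each construct and made few called differences in the 4 genes. With shMyh9#2, Myh9 fell 2.86-fold in EV, 4.11-fold in WT-Bmal1 and 3.23-fold in dHLH-Bmal1 cells. With shMyh9#4 it fell 1.43-fold, 1.91-fold and 1.34-fold, so those comparisons test a smaller loss of Myh9. Whether a hairpin altered the effect of a construct was not tested. In EV cells, Nr1d2 stood at 34.8 and 36.8 CPM with shNC, 53.2 and 49.9 CPM with shMyh9#2, and 37.9 and 51.0 CPM with shMyh9#4. It was 1.45-fold higher with shMyh9#2 (log2 0.53, SE 0.15, adjusted p = 0.0411), the 1 member called there beside 6.65% of genes, and lost its call without any of those 4 libraries (adjusted p = 0.257 without shNC replicate 1, 0.179 without shNC replicate 2, 0.264 without shMyh9#2 replicate 1 and 0.119 without shMyh9#2 replicate 2). With shMyh9#4 averaged over the constructs, Nr1d2 was higher by log2 0.31 (SE 0.087, adjusted p = 0.0474), 1 member beside 5.29% of genes. That call was lost with a replicate block (adjusted p = 0.052) and without most single libraries, among them WT-Bmal1 shMyh9#4 replicate 1 (0.149). In dHLH-Bmal1 cells, Nr1d1 stood at 3.96 and 4.22 CPM with shNC, 5.87 and 7.33 CPM with shMyh9#2, and 4.79 and 8.34 CPM with shMyh9#4. Both hairpins lay above shNC, at log2 0.72 (adjusted p = 0.352) and 0.76 (adjusted p = 0.0933), neither called, and the latter passed without dHLH-Bmal1 shMyh9#4 replicate 1 (log2 1.04, adjusted p = 0.0354).

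In the other hairpin comparisons, edgeR and DESeq2 both called 0 members. EV cells with shMyh9#4 had 0 members at an unadjusted p under 0.05 (1.71% of genes called), WT-Bmal1 cells had 1 with shMyh9#2 (4.76%) and 0 with shMyh9#4 (0.236%), dHLH-Bmal1 cells had 2 with shMyh9#2 (0.559%) and 3 with shMyh9#4 (15.1%), and shMyh9#2 averaged over the constructs had 2 (6.27%).

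In B16-F10, which asks what loss of Bmal1 did in a line not made from YUMM cells, Nr1d2 stood at 35.3 and 34.0 CPM in Ctrl and 7.26 and 6.23 CPM in those labelled Bmal1 KO. It was 5.15-fold lower in the latter (log2 -2.37, SE 0.21, adjusted p = 0.0326). This was the 1 member called, beside 0.44% of 14556 genes, and the call was lost without Ctrl replicate 1 (adjusted p = 0.0594) or Ctrl replicate 2 (0.069). Nr1d1 stood at 2.95 and 3.30 CPM in Ctrl and 1.51 and 1.05 CPM in the KO libraries. Rora, highest in this line, stood at 67.9 and 65.7 CPM in Ctrl and 47.0 and 43.2 CPM in the others. Neither overlapped between groups, and neither was called, at log2 -1.29 (SE 0.41, adjusted p = 0.338) and -0.57 (SE 0.16, adjusted p = 0.30). In 1 fit of all 40 libraries, which takes the spread from all lines together, both passed (adjusted p = 0.00267 and 0.0318). The KO libraries had the widest spread of the 20 groups, at 89.4 times the variance of counting alone. That fit may therefore understate the spread in B16-F10, and the share of all genes it called here was not counted. Nfil3 stood at 5.05 and 5.43 CPM in Ctrl and 5.75 and 8.96 CPM in the others (log2 0.48, 95% interval -0.31 to 1.28). Calls of Nr1d1, Rora and Nfil3 depended on which KO library was left out, and the spread then rests on both Ctrl libraries. With each library left out, their log2 differences ran from -1.57 to -1.05, -0.63 to -0.51 and 0.13 to 0.77. The share of all genes called in these refits was not counted. Each group was 1 clone, so Bmal1 loss and differences between clones cannot be told apart.

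Between lines with EV or Ctrl, all 3 other lines had less REV-ERB RNA than YUMM2.1 without a hairpin. Nr1d1 was 8.85-fold lower in aC3 (log2 -3.15, SE 0.28, adjusted p = 2.07e-08), 2.35-fold lower in YUMM1.7 (log2 -1.23, adjusted p = 0.000242) and 5.69-fold lower in B16-F10 Ctrl (log2 -2.51, adjusted p = 2.99e-09). Nr1d2 was 3.32-fold lower in aC3 (log2 -1.73, adjusted p = 1.44e-08), 1.35-fold lower in YUMM1.7 (log2 -0.44, adjusted p = 0.0197) and 2.00-fold lower in B16-F10 Ctrl (adjusted p = 1.41e-06). Rora was lower in aC3 (log2 -0.96, adjusted p = 0.00246) and YUMM1.7 (log2 -1.88, adjusted p = 1.34e-08) and higher in B16-F10 Ctrl (log2 1.30, adjusted p = 7.72e-07). Nfil3 was 2.82-fold higher in aC3 (adjusted p = 0.000113) and 1.53-fold higher in YUMM1.7 (log2 0.61, adjusted p = 0.0442), and in B16-F10 Ctrl it differed by log2 -0.01. These counts of 4, 4 and 3 members called stand beside 2.48%, 31.8% and 46.9% of genes. Line and experiment cannot be told apart here, and the 3 comparisons share the YUMM2.1 EV libraries. EV cells of YUMM2.1 with shNC were not compared here. Their mean levels were 35.8 CPM for Nr1d2 and 14.2 CPM for Nfil3. YUMM1.7 EV stood at 51.2 and 8.05 CPM, above them for Nr1d2 and below them for Nfil3. Nr1d1 with shNC, at 9.87 CPM, was still above its level in the 3 other lines. With the 2 doubted labels exchanged, the Nfil3 call in YUMM1.7 was lost (log2 0.56, adjusted p = 0.0591). The calls of Nr1d2 and Nfil3 in YUMM1.7 were also lost with no filter on low counts (adjusted p = 0.0532 and 0.149) and without YUMM2.1 EV replicate 1 (0.0949 and 0.0922), YUMM2.1 EV replicate 2 (0.0608 and 0.206) or YUMM1.7 EV replicate 1 (0.0691 and 0.359). That of Nfil3 was lost in DESeq2 (0.0714) and in a fit of only the experiments compared (0.0629). That of Nr1d2 was lost without YUMM1.7 EV replicate 2 (0.11), and that of Rora in aC3 without aC3 EV replicate 2 (0.0641).

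Because the ends of Nr1d1 and Thra overlap and whether counting used strand is not stated in the sources used here, reads of the 2 genes may not be told apart. With dHLH-Bmal1, where Nr1d1 fell, Thra rose in aC3 from 91.6 and 74.9 CPM with EV to 135 and 128 CPM (log2 0.64, adjusted p = 0.00181). It also rose in YUMM2.1, from 65.1 and 72.3 CPM to 109 and 112 CPM (log2 0.69, adjusted p = 0.0148), and with shNC, from 46.5 CPM in both EV libraries to 101 and 116 CPM (log2 1.22, adjusted p = 1.06e-06). In YUMM1.7, Thra differed by log2 0.17 (adjusted p = 0.479) while Nr1d1 was called lower. Thra also moved where Nr1d1 did not fall or fell with it. With WT-Bmal1 under shNC it was higher than EV (log2 0.51, adjusted p = 0.00808, and 0.0563 to 0.0793 without EV replicate 1, EV replicate 2 or WT-Bmal1 replicate 1) with Nr1d1 at 0.04, and in B16-F10 Ctrl both were lower than in YUMM2.1 EV (Thra log2 -1.33, adjusted p = 2.27e-10). Over the 20 group means less the mean of each experiment, Nr1d1 and Thra had a Pearson r of -0.57, and over the plain group means -0.051. The Thra call in aC3 was lost without EV replicate 2 (adjusted p = 0.0595), and that in YUMM2.1 without EV replicate 1 (0.0938), dHLH-Bmal1 replicate 1 (0.0528) or dHLH-Bmal1 replicate 2 (0.0639) and with both doubted libraries left out (0.0687). The part of shared reads in these levels was not tested.

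**Figure D3:**
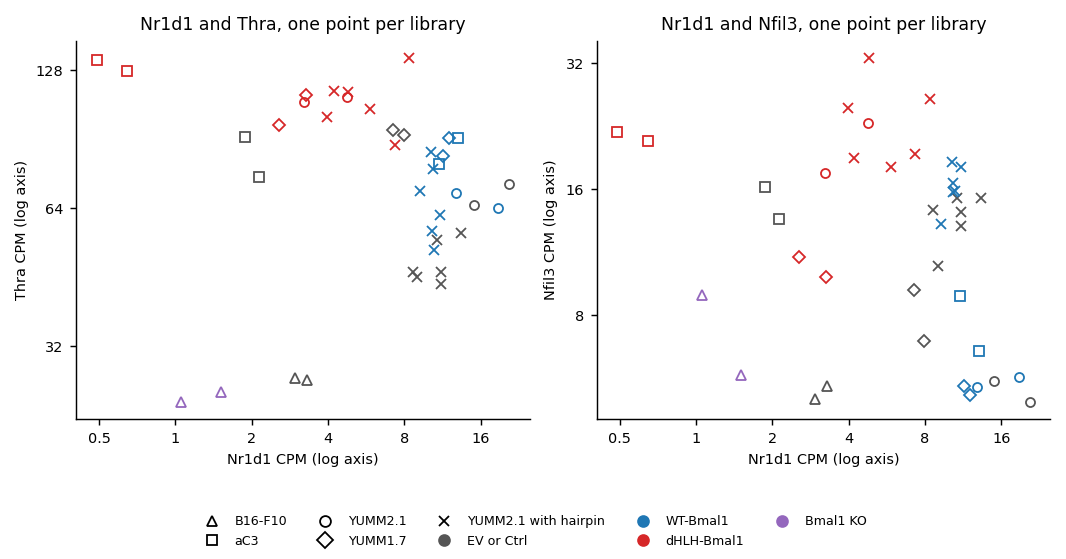
Nr1d1 CPM (x axis) against Thra CPM (left) and Nfil3 CPM (right), on log axes, with 1 point for each of 40 libraries, a symbol for each experiment and a colour for each construct or genotype. The dHLH-Bmal1 libraries of aC3 stand at the far left, at 0.490 and 0.645 CPM of Nr1d1, with 135 and 128 CPM of Thra and 22.0 and 20.8 CPM of Nfil3.

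The genes whose pattern over the 20 group means was most like that of Nr1d1 were Nr1d2 (Pearson r = 0.94), Per3 (0.86) and Dbp (0.83), by log2 CPM. For Nr1d2 they were Nr1d1 (0.94), Per3 (0.85) and Dbp (0.85). Per3 and Dbp are E-box genes of the clock. For Nfil3 they were Arntl (0.90), Gm47956 (0.85) and Pkm (0.85), and for Rora Abhd18 (0.93), Gm48182 (0.91) and Tpd52 (0.90), none of them a gene of the lists used here except Arntl. After the mean of each experiment was taken off, Per3 came first for both Nr1d1 (0.97) and Nr1d2 (0.92), ahead of or level with the other REV-ERB gene (0.92) and Dbp (0.89 and 0.87). Nfil3 was then most like Capn2 (0.90) and Slc4a1ap (0.88), and Rora most like Gm36198 (0.81), Chd2 (0.79) and Kmt5b (0.78). On the same centred values, Nfil3 had r = -0.87 with Nr1d1, -0.73 with Nr1d2 and 0.82 with Arntl. Over the plain group means, r of Nfil3 was -0.26 with Nr1d1 and -0.24 with Nr1d2. These 20 points share lines, EV libraries and scaling, and were picked from 16619 genes, so the values describe likeness and carry no test.

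The lists of loop genes give the setting of these values, each by how many tested members edgeR called and by its median log2 fold change, beside a median of all genes between -0.011 and 0.017 in these comparisons. The share of all genes called was 11.2% with WT-Bmal1 and 10.9% with dHLH-Bmal1 in aC3, 0% and 13.2% in YUMM2.1, 0.138% and 0.63% in YUMM1.7, and 22.3% and 26.4% with shNC. The E-box list holds Clock-Bmal1 targets other than the REV-ERB genes. In aC3 with WT-Bmal1, 5 of 9 tested were higher than EV and 0 lower (median 0.88): Per2 by 2.90, Dbp by 2.54, Per3 by 2.25, Tef by 1.36 and Bhlhe40 by 0.71, all called in every alternative. Per2 and Per3 are clock repressors, Dbp and Tef activators at D-boxes, and Bhlhe40 a repressor at E-boxes. With dHLH-Bmal1 in aC3, 1 of 9 was higher, the clock repressor Cry2 by 0.62, and 1 lower, Per3 by -1.09 (median 0.20). Cry2 was lost in 5 alternatives, among them without EV replicate 2 (adjusted p = 0.358), dHLH-Bmal1 replicate 1 (0.139) or dHLH-Bmal1 replicate 2 (0.0636), and Per3 without EV replicate 1 (0.0843). In YUMM2.1 without a hairpin, 3 of 9 were lower with dHLH-Bmal1 and 0 higher (median -0.30): Dbp by -1.50, Per3 by -1.19 and Tef by -1.03, called in every alternative. Dbp, Per3 and Tef were also the 3 of 10 lower in YUMM1.7 (median -0.74, 0 higher), by -1.02, -1.09 and -0.79.

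With shNC, 3 of 9 E-box genes were higher with WT-Bmal1 (Dbp by 1.08, Per2 by 0.93 and Tef by 0.81) and Bhlhe40 was lower by -0.56 (median 0.51). With dHLH-Bmal1 under shNC, Cry2 was higher by 0.69 and Bhlhe40 lower by -0.76, 2 of 9 (median -0.12), which is near the 26.4% of all genes called. With WT-Bmal1, Per2 and Bhlhe40 lost their calls without any 1 of the 4 libraries (adjusted p up to 0.205 and 0.146), Per2 also in DESeq2 (0.0574) and in 1 fit of all 40 libraries (0.0503), Dbp without EV replicate 2 (0.0681) or WT-Bmal1 replicate 2 (0.0707) and Tef without EV replicate 1 (0.0518). With dHLH-Bmal1, Cry2 was lost without EV replicate 1 (0.0526), EV replicate 2 (0.144) or dHLH-Bmal1 replicate 2 (0.247), and Bhlhe40 without dHLH-Bmal1 replicate 1 (0.0628). With WT-Bmal1 in YUMM2.1 without a hairpin edgeR called 0 of 9, with 0 at an unadjusted p under 0.05 and 0 called by DESeq2. With WT-Bmal1 in YUMM1.7 it called 0 of 10, with 3 at an unadjusted p under 0.05 and 9 without an adjusted p in DESeq2, and in B16-F10 0 of 9, with 2 at an unadjusted p under 0.05, 0 called by DESeq2 and 1 without an adjusted p there.

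The RORE list, the clock genes that REV-ERB and ROR bind, holds Arntl, Clock, Npas2 and Cry1. Arntl is also the gene disrupted in aC3 and B16-F10 KO cells and supplied by the constructs, and which of these its 3′ counts hold was not tested. In aC3 with WT-Bmal1, 2 of 4 were lower (median -0.95), Arntl by -0.83 and Cry1, a clock repressor, by -1.06. With dHLH-Bmal1, Cry1 was higher in aC3 by 1.12, the 1 of 4 called (median 0.70). Arntl and Cry1 were the 2 of 3 higher with dHLH-Bmal1 in YUMM2.1 (1.54 and 1.13, median 1.13), in YUMM1.7 (1.05 and 1.12, median 1.05) and with shNC (0.60 and 0.79, median 0.60). Clock was not called in these 8 comparisons of a construct with EV, and was higher with dHLH-Bmal1 averaged over the hairpins by 0.31 (adjusted p = 0.00226), where all 3 tested were higher and 42.8% of genes were called. With WT-Bmal1, edgeR called 0 of 3 in YUMM2.1, YUMM1.7 and shNC cells, with 0, 2 and 0 at an unadjusted p under 0.05 and none called by DESeq2, which gave 2 of them no adjusted p in YUMM1.7. In B16-F10 edgeR called 0 of 3, with 1 at an unadjusted p under 0.05 and 1 called by DESeq2. Of the values of these 2 lists, those of Arntl and Cry1 in aC3 and of Arntl in YUMM2.1 were called in every alternative. Cry1 in YUMM2.1, at an adjusted p of 0.0498, was lost without EV replicate 1 (adjusted p = 0.208) or dHLH-Bmal1 replicate 2 (0.213), with DESeq2 size factors and with a filter of 10 counts on average (0.0504). In YUMM1.7, 1 fit of all 40 libraries lost Dbp, Per3, Tef, Arntl and Cry1 (adjusted p = 0.0691, 0.0533, 0.0533, 0.0956 and 0.152), and leaving out single libraries lost Dbp (up to 0.28), Arntl (up to 0.257) and Cry1 (0.0532 without EV replicate 2). With shNC, Arntl was lost without EV replicate 2 (0.164) or dHLH-Bmal1 replicate 1 (0.265), and Cry1 without EV replicate 1 (0.0619).

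Rorb, another ROR gene, was read in the YUMM lines. Rorb lay between 151 and 163 CPM with EV in YUMM2.1 and 50.3 and 51.9 CPM with dHLH-Bmal1 (log2 -1.62, adjusted p = 0.00143). With WT-Bmal1 in these cells it lay between 139 and 152 CPM and was not called. With shNC it fell from 167 to 173 CPM with EV to 42.7 to 44.4 CPM with WT-Bmal1 (log2 -1.96, adjusted p = 1.51e-08) and 37.9 to 39.9 CPM with dHLH-Bmal1 (log2 -2.12, adjusted p = 2.87e-09). In aC3 it was lower with WT-Bmal1 (log2 -0.48, adjusted p = 0.0029), which was lost without EV replicate 1 (0.0713) or WT-Bmal1 replicate 2 (0.0644) and in 1 fit of all 40 libraries (0.084). In YUMM1.7 it lay between 25.5 and 34.6 CPM in all 6 libraries and was not called. In B16-F10 Rorb was at or under 0.204 CPM. The remaining lists were counted over the 8 comparisons of WT-Bmal1 or dHLH-Bmal1 with EV, in which 5.38% of 113554 tests of all genes were higher and 5.43% lower. Of 48 tests of the REV-ERB corepressor list, 4 were higher (Tbl1x in 2, Gps2 and Tbl1xr1) and 0 lower, with 12 at an unadjusted p under 0.05 and 4 called by DESeq2. Of 48 tests of genes for REV-ERB turnover and heme, 0 were higher and 2 lower (Alas1, the first enzyme of heme synthesis, and the ubiquitin ligase gene Huwe1), with 7 and 2. With dHLH-Bmal1 averaged over the hairpins, 3 of 6 of these genes were higher and 2 lower, beside 42.8% of all genes called. Of 38 tests of ROR coactivators, 1 was higher (Crebbp) and 2 lower (Ppargc1b in both), with 8 and 3. The counts over the 8 comparisons were near the shares of all genes and are no result about the lists.

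**Figure D4:**
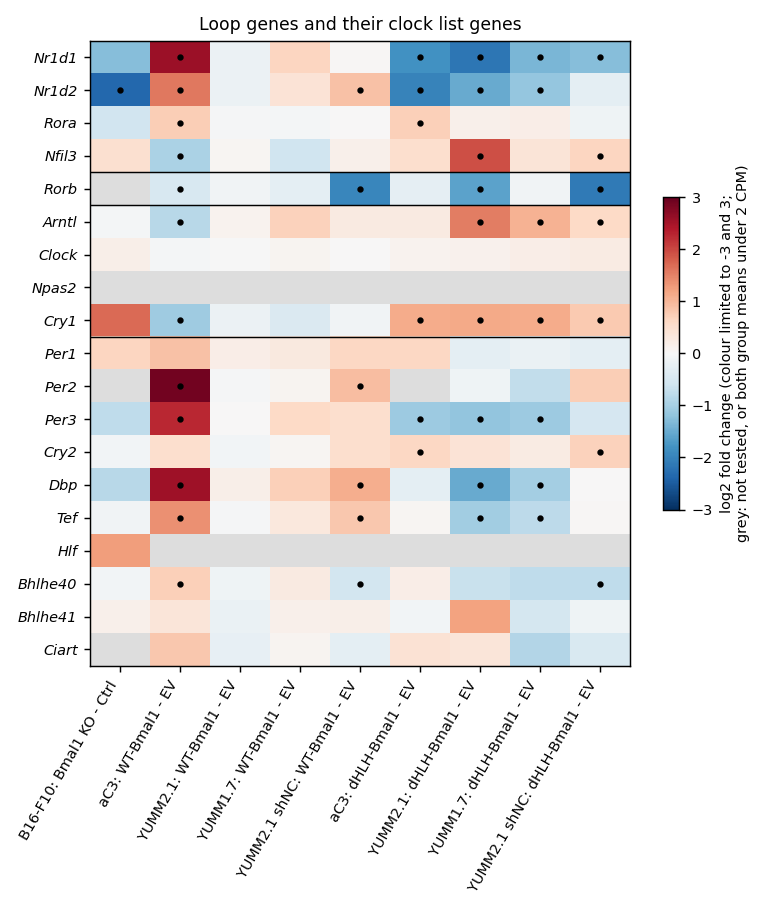
Log2 fold changes (colour) of the 4 genes, Rorb, the RORE list and the E-box list (vertical) in the comparisons of knockout or construct with control (horizontal), with a dot where the edgeR test was passed and grey where a gene was not tested or both group means were under 2 CPM. Per2, Dbp, Nr1d1 and Per3 rose with WT-Bmal1 in aC3 by 2.90, 2.54, 2.57 and 2.25, and Cry1 was higher with dHLH-Bmal1 in all 4 sets of cells, by 0.79 to 1.13.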

How the data were processed

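The libraries were made from cultured mouse melanoma cells with QuantSeq FWD, a 3′ end method, and the authors aligned the reads to mm10 with bowtie2 and estimated reads per gene with RSEM. The deposited values are counts, held as whole numbers without normalization, for 51789 Ensembl genes. The Ensembl release used and whether counting kept strand are not given in the sources used here. Groups were taken from the sample labels. Symbols and positions are those of GENCODE for GRCm38, which names 99.63% of the identifiers, and promoter sequences are those of RefSeq for GRCm38.p6, matched for all 4 members.

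Counts were tested in R 4.3.3 with edgeR 4.0.16, using TMM scaling, filterByExpr and a quasi-likelihood F test over all genes, with Benjamini-Hochberg adjustment and a threshold of 0.05. Groups of 1 experiment were fitted together, and comparisons between lines, and of effects between lines, in a fit of all 40 libraries. Intervals of 95% use the t quantile of that fit and cover the spread between libraries. Levels are CPM with TMM factors of all 40 libraries, and correlations use log2 CPM with a prior count of 2. The code was tested on simulated data. No permutation test was run, since 2 libraries against 2 cannot reach the threshold.

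The members and lists were chosen with earlier results of these data known. By the rule for named genes, the text gives the 4 members, genes overlapping them, the targeted genes Arntl and Myh9, the called genes of the pathway lists (the ROR gene Rorb, RORE targets, E-box targets, REV-ERB corepressors, REV-ERB turnover and heme, ROR coactivators), and the 3 genes most like each member. Alternatives were DESeq2 1.42.0 and its size factors, a filter of 1 count in the fit or of 10 counts on average, a replicate block, 1 fit of all 40 libraries or only of the experiments compared, library totals for levels, each library left out in turn and the exchange of 2 YUMM2.1 labels. Leaving out both of those libraries, and a fit of 8 hairpin libraries, were added after the data were seen. Where a group was left with 1 library, it was assumed to vary like the other groups. Some items that the rule names are not reported here. Protein sequences were not used here.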

Additional observations from a re-analysis of the deposited data

Results flagged for a closer look

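The effects of a construct differed between lines, with the YUMM2.1 clone aC3 taken as one, for 3 of the 4 genes by the test of the difference itself, in edgeR over 40 libraries. Shares of all genes called in each test are given beside them. The WT-Bmal1 effect was larger in aC3 than in YUMM2.1 by log2 2.75 for Nr1d1 (SE 0.37, adjusted p = 0.000282) and by 1.73 for Nr1d2 (SE 0.21, adjusted p = 9.73e-05), beside 0.168% of all genes. The dHLH-Bmal1 effect on Nfil3 differed by -1.42 for aC3 minus YUMM2.1 (SE 0.30, adjusted p = 0.00189) and by -1.56 for YUMM1.7 minus YUMM2.1 (SE 0.31, adjusted p = 0.00126). Nfil3 was the only 1 of the 4 genes called in each of these 2, where 11.6% and 9.42% of all genes were. These 4 calls held when each library was left out in turn and when the 2 doubted YUMM2.1 labels were exchanged. In these differences YUMM2.1 means the cells without a hairpin, and line and experiment cannot be told apart. With shNC, the dHLH-Bmal1 effect on Nfil3 in YUMM2.1 was log2 0.65, against 1.94 without a hairpin. No group had more than 2 libraries, so no search for a library far from the others of its group was made.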

How the results depend on the processing

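Over 120 values, 4 genes in 30 comparisons, 31 of 48 called values kept their call under every alternative, and no called value changed sign. With 2 libraries a group, leaving out 1 library was the change that ended most calls, in 48 of 672 refits. DESeq2 gave no adjusted p for 10 values, which are left out here, among them all 4 genes in both comparisons with EV in YUMM1.7.

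Members called moved as follows, here and with each library left out. The share of all genes called in these refits was not counted, so the shifts describe the refits and are no result about the members. With no filter on low counts, 1 was called for WT-Bmal1 against EV in YUMM1.7 (0 before) and 2 for YUMM1.7 EV against YUMM2.1 EV (4 before). In 1 fit of all 40 libraries, 3 were called in B16-F10 (1 before), 1 for dHLH-Bmal1 against EV in YUMM1.7 (2 before) and 2 for WT-Bmal1 against EV averaged over hairpins (1 before). With a replicate block, 0 were called for shMyh9#4 averaged over constructs (1 before), Nfil3 with dHLH-Bmal1 in aC3 was gained (adjusted p = 0.0397), and no other call changed. Same-numbered libraries deviated together in YUMM2.1 without a hairpin (mean r = 0.24) and hardly in B16-F10 (0.087), aC3 (0.027), YUMM1.7 (0.0054) or the hairpin cells (-0.0042), and the labels do not say what a number shares, so it was not taken as a pairing.

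With each library left out, members called ranged from 0 to 4 in B16-F10, 1 to 3 for dHLH-Bmal1 against EV in aC3, 1 to 3 for WT-Bmal1 against dHLH-Bmal1 in YUMM2.1 and 1 to 2 for dHLH-Bmal1 against EV in YUMM1.7. With shNC they ranged from 1 to 2 both for dHLH-Bmal1 against EV and for WT-Bmal1 against dHLH-Bmal1. They were 0 to 0 for EV cells with shMyh9#2, 0 to 1 for dHLH-Bmal1 cells with shMyh9#4, 0 to 1 for shMyh9#4 averaged, 1 to 3 for WT-Bmal1 averaged and 2 to 3 for YUMM1.7 EV against YUMM2.1 EV.

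Changes of sign were seen among uncalled differences near 0. With the 2 YUMM2.1 labels exchanged, WT-Bmal1 against EV gave log2 0.50 for Nr1d1 and -0.045 for Nfil3, and Nr1d1 gave 0.30 with both libraries left out. With each library left out, the log2 difference ran from -0.051 to 0.10 for Rora between WT-Bmal1 and dHLH-Bmal1 in aC3, and for WT-Bmal1 against EV in YUMM2.1 from -0.48 to 0.061 for Nr1d1, -0.19 to 0.082 for Rora and -0.023 to 0.16 for Nfil3. It ran from -0.12 to 0.22 for Nr1d1 for WT-Bmal1 against EV with shNC, -0.11 to 0.011 for Nr1d1 for the same averaged over hairpins, and -0.099 to 0.080 for Nfil3 for B16-F10 Ctrl against YUMM2.1 EV. Exchanging the labels also called Rora in the WT-Bmal1 effect of aC3 minus YUMM2.1 (log2 0.92, adjusted p = 0.043). Library totals in place of TMM moved 14 of 80 group levels by more than their SD, by at most 1.08 times. Genes near 1 CPM rest on few counts, such as Nr1d1 with dHLH-Bmal1 in aC3 (5 and 6), and changes of such genes were not detectable at this depth unless large.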
